A study of Danio rerio with 23 samples.

Results

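The genes described here are those of the zebrafish proteasome, taken by a rule on names: every gene whose symbol in the gene name table begins with *psma* to *psmg*. Earlier results of these data were known when the proteasome was chosen. Of the 34326 genes counted, 57 (54 symbols) met this rule and were analysed here. They comprised 10 genes of the alpha ring, 7 of the constitutive beta ring and 7 beta genes named *psmb8* to *psmb13a*. The latter are called inducible here by their number alone, which takes in *psmb11* and *psmb11b*. There were also 7 genes of the ATPase base, 12 non-ATPase subunits of the regulatory particle, 3 regulatory particle chaperones and 3 PA28 activators. The others were 2 genes for PA200, 1 for the inhibitor PI31 and 3 core assembly chaperones, plus *psmc3ip* and *psme3ip1*, which share the prefix but encode no subunit.

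The proteasome is the large protease that degrades proteins tagged with ubiquitin. Stacked alpha and beta rings form its core particle, in which the beta subunits cut proteins and the alpha subunits gate the entrance, and a regulatory particle of ATPases and other subunits recognises, unfolds and feeds in the substrate. Interferon signalling replaces the constitutive catalytic beta subunits with inducible ones, giving the immunoproteasome. The PA28 caps built from *psme1* and *psme2* open the core without ATP, and both changes alter the peptides shown on MHC class I.

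RNA was sequenced from whole intestines of zebrafish that were siblings from 1 breeding pair, moved at 60 days post fertilization into 4 tanks, 2 fed throughout and 2 deprived of food for 21 days and then refed. No gene was altered in any group. The 23 libraries formed 6 groups: fed (n = 3) and starved (n = 4) fish at 3 days post-starvation (3dpS), fed (n = 4) and starved (n = 4) fish at 21dpS, and fed (n = 4) and refed (n = 4) fish at 3 days post-refeeding (3dpR), the refed fish having been starved for 21 days beforehand. The labels give the age of every library as 81 days, although the groups were sampled at different times. Because food was withheld by tank, diet and tank cannot be told apart, and within each arm time and sampling day cannot be told apart. In whole intestine, fewer cells of a type and less RNA per cell also cannot be told apart.

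Libraries held 500205 to 1236436 counted reads (median 596487), so that 3 reads corresponded to 2.43 to 6.00 counts per 1000000 reads (CPM). Proteasome genes held 0.159 to 0.297% of them, or 994 to 2476 reads a library. The largest library was Sta1Gut2 of starved fish at 3dpS. In it every proteasome gene, the total, *mt-nd6* (30274 reads) and *mt-co1* (9692 reads) had an even count. It detected 12546 genes, near the median of 12255. Whether its reads were counted repeatedly was not tested, and its true depth may be lower than given. Its counts are used below as deposited, also in sums of reads over starved fish at 3dpS. The fed library Fed1Gut1 at 3dpS stood apart in exocrine pancreas markers. Their summed level over 11 genes was 6599 CPM there, against 612 and 806 CPM in the other fed libraries of that day. It also stood apart in the erythrocyte list, with 31607 CPM against 2475 and 2043 CPM. That sum was in effect *alas2* alone (mean of 3513 reads a library). The matched globin genes *hbaa1* and *hbaa2* averaged 0.087 and 0 reads. The mitochondrial gene *mt-nd6*, alone among the protein-coding genes of that genome in lying on the opposite strand, had a mean of 16493 reads a library, and the next, *mt-co1*, had 3915. Whether the library kit kept strand and which strand was counted are not given in the sources used here. A level printed below is therefore the level recorded under a gene's name, and whether reads from the other strand are in it was not tested.

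Reads were spread unevenly over the complex. *psme2* (mean of 382 reads a library), the *psma6* gene ENSDARG00000013966 (303) and *psma2* (109) took 56.8% of all reads on proteasome genes. The 7 genes of the ATPase base, which encode the ring that unfolds substrates, all had enough reads to be tested in at least 1 comparison with fed fish, as did the 3 PA28 genes, 5 of 10 alpha ring genes, 4 of 12 non-ATPase subunits and 3 of 7 inducible beta subunits. None of the 7 constitutive beta ring genes did. These 7 genes averaged 0.609 to 6.57 reads each and together 20.7 reads a library. *psmb5*, *psmb6* and *psmb7*, which carry the constitutive catalytic sites, had 13 to 22, 3 to 9 and 1 to 6 reads per group, summed over its libraries. In all, 34 members passed the filter on low counts in no comparison with fed fish, 29 of them with under 5 reads a library on average. *psmb11* and *psmb11b* had no read in any library. The alpha ring gene *psma1* averaged 0.478 reads. These genes could not be followed singly in those comparisons at such counts, and whether the strand counted has a part in the low counts was not tested.

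**Figure D1:**
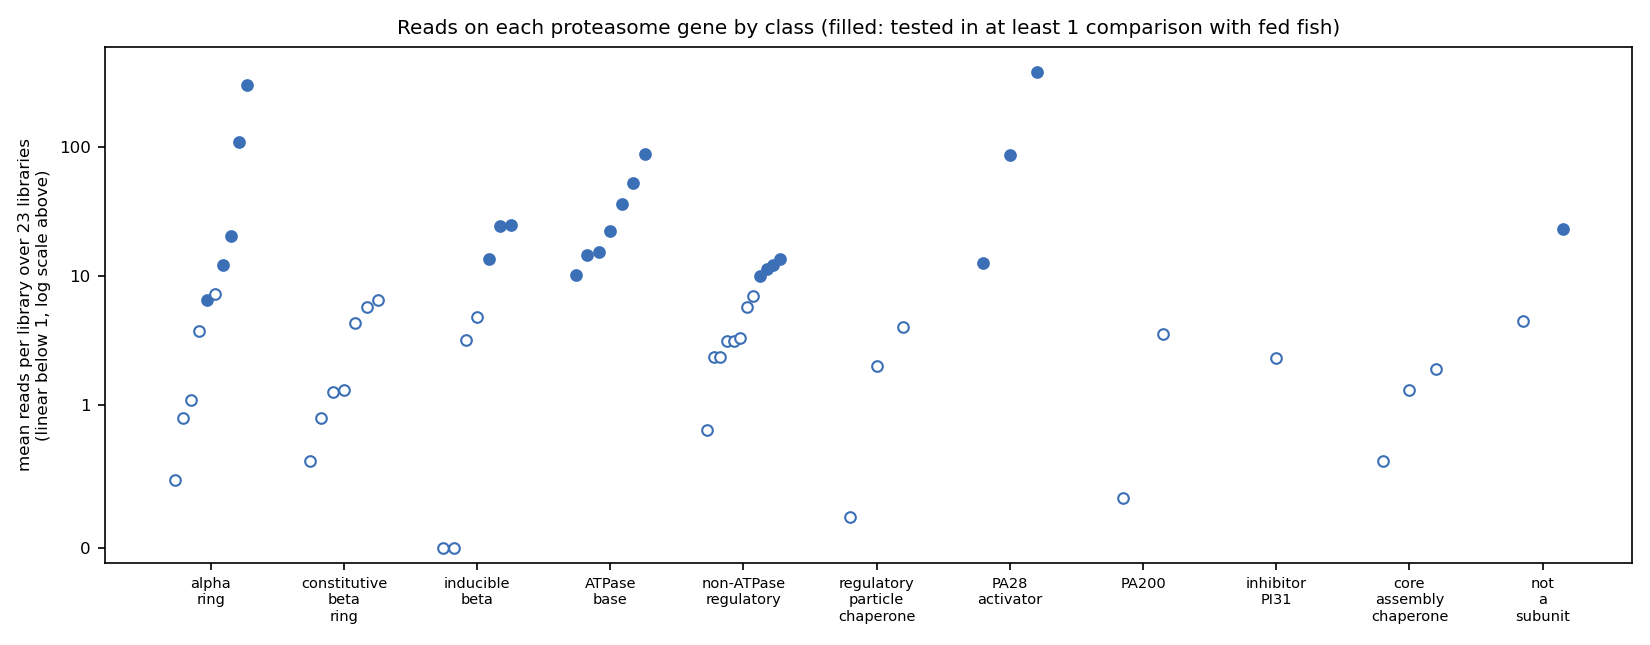
Mean reads per library over the 23 libraries for each of the 57 proteasome genes, by class, on an axis that is linear below 1 read and logarithmic above. Filled points are genes tested in at least 1 comparison with fed fish: all 7 ATPase genes and 3 PA28 genes are filled, none of the 7 constitutive beta genes is.

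Levels below are CPM scaled by the trimmed mean of M values (TMM). Libraries are given in a fixed order: at 3dpS, Fed1Gut1, Fed2Gut2 and Fed2Gut3, then Sta1Gut1, Sta1Gut2, Sta2Gut2 and Sta2Gut3; at 21dpS, Fed1Gut1, Fed1Gut3, Fed2Gut1 and Fed2Gut3, then Sta1Gut2, Sta2Gut1, Sta2Gut2 and Sta2Gut3; at 3dpR, Fed1Gut2, Fed1Gut3, Fed2Gut2 and Fed2Gut3, then Sta1Gut1, Sta1Gut3, Sta2Gut1 and Sta2Gut2. In these names the first digit is the tank and the second the fish. Differences were tested with edgeR's quasi-likelihood test over all genes that passed the filter, 2-sided, and a gene was called at a Benjamini-Hochberg adjusted p under 0.05. Changes are log2 fold changes with their standard error (SE).

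Among the inducible beta subunits 1 gene was called between starved and fed fish. *psmb8* (ENSDARG00000001303), whose product takes the place of the chymotrypsin-like constitutive subunit, was the one member called against fed fish at any time point, and it was lower after 21 days without food. At 21dpS its level was 54.0, 49.4, 41.0 and 51.2 CPM in fed fish and 24.6, 20.9, 19.1 and 18.8 CPM in starved fish. Every starved library lay below every fed library. The change was -1.28 (SE 0.29, n = 4 and 4), or 2.43-fold lower, with an adjusted p of 0.0298 by edgeR, and an exact 2-sided permutation test gave p = 0.0286, the smallest that 4 against 4 allows. The call was held on leaving out Fed2Gut1 (adjusted p = 0.0317) and lost on leaving out any other of the 8 libraries, each of which leaves fewer samples: the adjusted p was then 0.0750 without Fed1Gut1, 0.0665 without Fed1Gut3, 0.0706 without Fed2Gut3, 0.0594 without Sta1Gut2, 0.0875 without Sta2Gut1, 0.0707 without Sta2Gut2 and 0.105 without Sta2Gut3. The change itself stayed between -1.35 and -1.21 throughout. With every gene of at least 1 read tested the adjusted p was 0.0814 and the call was lost.

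At 3dpS *psmb8* was at 23.4, 57.4 and 46.7 CPM in fed fish and 24.8, 21.9, 46.4 and 40.2 CPM in starved fish, and the groups overlapped (-0.35, SE 0.39, adjusted p = 0.740). The lowest fed value came from Fed1Gut1, the library apart in pancreas markers and *alas2*, and without it the change was -0.64, still not called. At 3dpR it was at 63.6, 69.0, 60.5 and 27.1 CPM in fed fish and 27.0, 29.6, 49.1 and 68.3 CPM in refed fish, again overlapping (-0.39, SE 0.37, adjusted p = 0.807). The difference between the effects at 21dpS and 3dpS was -0.86 (SE 0.51, adjusted p = 0.650) and that between 3dpR and 21dpS was 0.88 (SE 0.49, adjusted p = 0.554), so the effect at 21dpS was not shown to differ from those at the other times.

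*psmb13a* (ENSDARG00000001656), a further beta subunit gene that lies beside *psmb8* in fish, also had lower values in starved fish at 21dpS but was not called. At 21dpS fed fish had 21.6, 39.2, 48.8 and 47.4 CPM and starved fish 16.9, 20.9, 20.7 and 14.4 CPM. The groups did not overlap, although Fed1Gut1 was only just above the highest starved library. The change was -1.14 (SE 0.35) and missed the threshold at an adjusted p of 0.0892. It passed at 0.0368 where only genes with at least 10 reads in every library were tested. At 3dpS the values were 33.5, 53.1 and 64.3 CPM in fed fish and 29.5, 46.8, 26.9 and 29.8 CPM in starved fish (-0.57, SE 0.33, adjusted p = 0.461). At 3dpR they were 50.3, 56.4, 41.6 and 33.3 CPM in fed fish and 54.0, 19.04, 70.9 and 53.8 CPM in refed fish (0.07, SE 0.36, adjusted p = 0.967), with Sta1Gut3 the lowest of all.

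*psmb9* (ENSDARG00000000656), the inducible partner that replaces the caspase-like subunit, was lower at 21dpS in its mean but not beyond the spread. Fed fish had 18.5, 22.1, 39.0 and 18.98 CPM and starved fish 24.6, 15.6, 14.3 and 13.0 CPM (-0.59, SE 0.37, adjusted p = 0.398). Its high fed library was Fed2Gut1 and its high starved library Sta1Gut2. At 3dpS it was at 13.4, 25.8 and 17.7 CPM in fed fish and 20.2, 19.02, 17.1 and 11.9 CPM in starved fish (-0.14, SE 0.38, adjusted p = 0.919). At 3dpR it was at 37.0, 17.2, 22.7 and 29.2 CPM in fed fish and 24.7, 33.9, 32.7 and 22.8 CPM in refed fish (0.05, SE 0.35, adjusted p = 0.973). Neither day separated the arms. The remaining inducible genes were too low to test: *psmb10* had 2 to 24 reads and *psmb12* 12 to 32 reads per group, summed over libraries.

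**Figure D2:**
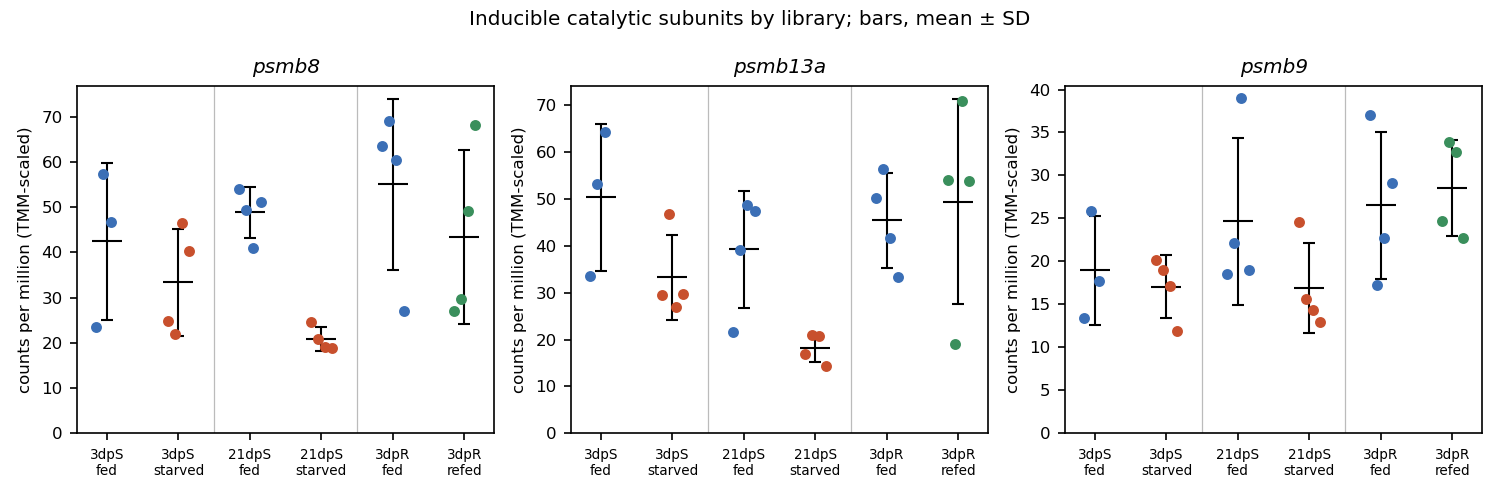
TMM-scaled CPM of *psmb8*, *psmb13a* and *psmb9* in each library of the 6 groups, with the group mean and SD as bars (n = 3 for fed fish at 3dpS, otherwise 4). At 21dpS the 4 starved libraries of *psmb8* lie between 18.8 and 24.6 CPM and the 4 fed libraries between 41.0 and 54.0 CPM, while the arms overlap at 3dpS and 3dpR.

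Refeeding was also compared with late starvation directly. *psmb13a* rose between starved fish at 21dpS and refed fish at 3dpR, from 18.2 ± 3.11 CPM (SD, n = 4) to 49.4 ± 21.8 CPM (SD, n = 4), a change of 1.45 (SE 0.38, adjusted p = 0.0239 by edgeR), although the exact 2-sided permutation test gave p = 0.0857. It was the 1 member called of 17 tested, where 11.3% of all genes tested were called and 5.22% were called higher. The refed library Sta1Gut3, at 19.04 CPM, lay within the starved range. Its call was lost without Sta1Gut2 (adjusted p = 0.0591) or Sta2Gut3 (0.0736) of the starved fish, or without Sta1Gut1 (0.0622), Sta2Gut1 (0.0787) or Sta2Gut2 (0.0569) of the refed fish. *psmb8* was higher in all 4 refed libraries than in any starved library at 21dpS, from 20.8 ± 2.67 to 43.5 ± 19.2 CPM (SD, n = 4 each), by 1.07 (SE 0.35), with an adjusted p of 0.0601, where 7.58% of all genes tested were apart in that direction. With tank number as a block it was called too (1.13, adjusted p = 0.0494). The same tanks were sampled in both groups, but libraries of the same tank deviated from their group means with a mean r of only -0.02 across genes. It was also called where at least 10 reads were required in every library (1.01, adjusted p = 0.0391). *psmb9* differed by 0.77 (SE 0.36, adjusted p = 0.171) and *psma2* by 0.63 (SE 0.25, adjusted p = 0.106). An unadjusted p under 0.05 was reached by 4 of the 17 members, all higher, where 27.9% of all genes did so and 13.1% did so upward. Over the 17 members the median change was 0.28 (0.19 without Sta2Gut2 and 0.47 without Sta1Gut3 of the refed fish), beside 0.0034 over all genes tested.

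Starved fish at 21dpS were likewise set against starved fish at 3dpS, where 1.86% of genes tested were called and 0 of 19 members were, with 2 members at an unadjusted p under 0.05 (20.1% of all genes). DESeq2 also called none. The groups did not overlap in 2 members, where 11.6% of all genes were apart. *psmb13a* was lower in every library at 21dpS (-0.93, SE 0.31, adjusted p = 0.137) and *psmb8* differed by -0.71 (SE 0.33, adjusted p = 0.254), its groups overlapping. *psme2* was higher in every library at 21dpS (0.38, SE 0.20, adjusted p = 0.296). Between fed fish at 21dpS and 3dpS 0 of 21 members were called (0.0588% of all genes, DESeq2 also 0). At an unadjusted p under 0.05 was 1 member, where 13.8% of all genes were: the ATPase gene *psmc3*, at 104 ± 12.3 CPM (SD, n = 3) and 192 ± 51.5 CPM (SD, n = 4), by 0.90 (SE 0.30, adjusted p = 0.238). Fed fish at 3dpR and 21dpS gave no call among 20 members and none (0%) among all 3114 genes tested by edgeR. No member had an unadjusted p under 0.05 (5.2% of all genes), and DESeq2 also called no member.

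Over the complex as a whole, 18 members were tested between starved and fed fish at 21dpS. *psmb8* was the 1 called, lower, where 2.81% of all genes tested were called and 1.65% were called lower. The log2 fold change was above 0 in 5 of the 18, where it was in 48% of all genes tested. Of the members, 4 had an unadjusted p under 0.05 (*psmb8*, *psmb13a*, *psmc1b* and *psmc3*), all lower, where 20.9% of all genes did and 11% did with a lower level. In 3 of the members tested (*psmb8*, *psmb13a* and *psmc1b*) the groups did not overlap, all with starved fish lower, where 5.74% of all genes tested were apart in that direction. Outside the test, on few reads, fed and starved fish were also apart in *psmd8* (15.6 to 22.1 and 5.78 to 15.4 CPM), *psma3* (7.81 to 18.5 and 4.33 to 7.69) and *psmb4* (10.2 to 15.2 and 4.61 to 10.1). In these the lowest fed and highest starved libraries nearly met. *psmd10* was apart with starved fish higher (0 to 1.70 and 1.74 to 4.61 CPM). By reads it was not apart, with 1 read each in Fed1Gut1, Fed1Gut3 and Sta2Gut1, and scaling alone parted them. No share over all genes was made for these untested genes, and no result is drawn from them. The median change over the 18 members was -0.41 (-0.61 without Fed2Gut3 to -0.21 without Fed1Gut3), beside -0.02 over all genes tested. By class the medians were -1.14 over the 3 inducible beta genes, -0.51 over 3 alpha ring genes, -0.52 over 6 ATPase genes, -0.28 over 2 non-ATPase subunits and 0.14 over the 3 PA28 genes. These are descriptions of genes that passed the filter, and no test between classes was made.

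No ATPase of the base was called at 21dpS, and their values had both signs. *psmc1b*, at 24.7, 35.8, 29.3 and 24.7 CPM in fed fish and 21.5, 13.9, 11.1 and 21.7 CPM in starved fish, was lower in every starved library (-0.79, SE 0.34, adjusted p = 0.200). *psmc3* (-0.65, SE 0.28, adjusted p = 0.204), *psmc4* (-0.68, SE 0.40, adjusted p = 0.360) and *psmc5* (-0.39, SE 0.37, adjusted p = 0.594) had lower means that did not pass. For *psmc3* the fed fish of that day, at 131 to 253 CPM, were all above those of 3dpS, at 93.3 to 117 CPM. The starved fish at 21dpS, at 105 to 181 CPM, were not below the fed fish of 3dpS. *psmc2* was at 0.36 (SE 0.40, adjusted p = 0.659). For *psmc1* the value was 1.12 (SE 0.61, adjusted p = 0.336), set by the starved library Sta1Gut2 at 263 CPM, and without it the value was 0.24. At the other times *psmc1b* was at 20.1, 38.8 and 20.9 CPM in fed fish and 7.75, 17.6, 24.4 and 20.9 CPM in starved fish at 3dpS, and at 48.8, 39.2, 28.4 and 24.99 CPM in fed fish and 8.99, 14.8, 20.0 and 51.7 CPM in refed fish at 3dpR. The arms overlapped on both days.

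Among the alpha ring genes, *psma6* (ENSDARG00000013966) was the most abundant by reads. At 21dpS it was at 347, 516, 1056 and 499 CPM in fed fish and 475, 423, 463 and 381 CPM in starved fish (-0.52, SE 0.30, adjusted p = 0.348). Fed2Gut1 alone stood far above every other library, and the arms overlapped. *psma8*, known in mammals as a germ cell form, was at -0.51 (SE 0.52, adjusted p = 0.627) and *psma2* at 0.19 (SE 0.25, adjusted p = 0.724). No member is named *psma7*, and whether *psma8* is a germ cell form in zebrafish was not tested. Of the lid and base subunits outside the ATPase ring, the scaffold gene *psmd1* was at -0.41 (SE 0.42, adjusted p = 0.632) and *psmd7*, the catalytically silent partner of the lid's deubiquitinase, at -0.16 (SE 0.36, adjusted p = 0.850). *psmc3ip*, a meiotic recombination cofactor, was at -0.09 (SE 0.29, adjusted p = 0.895).

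None of the PA28 genes was called at 21dpS. *psme2* was at 505, 441, 658 and 643 CPM in fed fish and 609, 781, 594 and 584 CPM in starved fish (0.14, SE 0.22, adjusted p = 0.774). *psme1* was at 13.9, 18.7, 15.6 and 11.4 CPM in fed fish and 18.4, 20.9, 17.5 and 15.9 CPM in starved fish (0.22, SE 0.35, adjusted p = 0.778). *psme3*, whose product caps the core in the nucleus, was at -0.41 (SE 0.28, adjusted p = 0.445). The arms overlapped for each. The difference between *psmb8* and these genes was not itself tested.

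**Figure D3:**
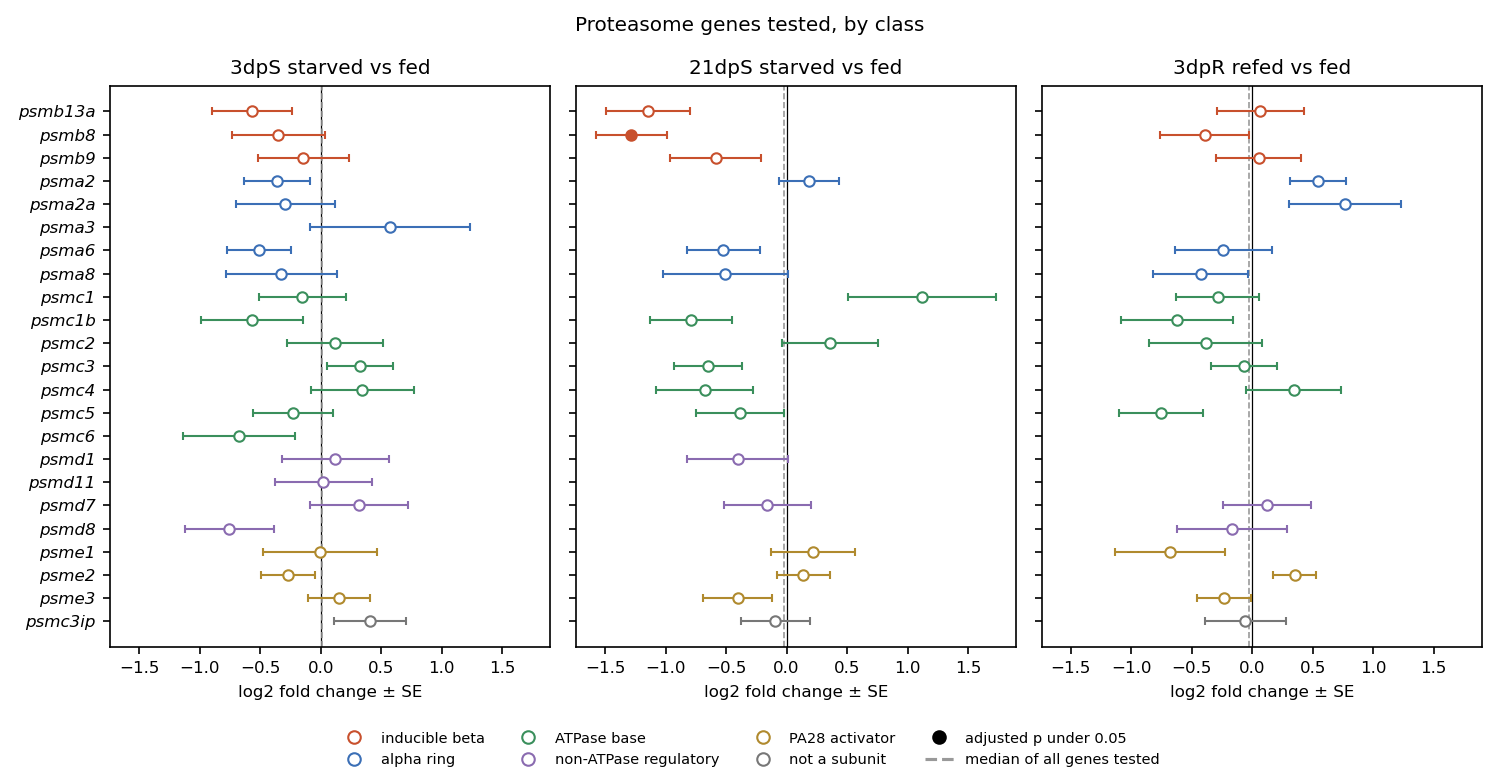
Log2 fold changes against fed fish, with SE, of the 23 members tested in at least 1 of the comparisons at 3dpS, 21dpS and 3dpR, coloured by class. The dashed line is the median over all genes tested and the filled point marks an adjusted p under 0.05, reached by *psmb8* alone, at -1.28 at 21dpS.

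After 3 days without food no member was called: 0 of 23, where 0.531% of all genes tested were called. The 21 genes behind that share became 116 without Fed1Gut1, 1 without Fed2Gut2, 2 without Fed2Gut3, 3 without Sta1Gut1 and 1 without Sta2Gut3. None of the 23 had an unadjusted p under 0.05, where 15% of all genes did, and DESeq2 also called none. Without the library Fed1Gut1 there were still 0 called, with 2 members at an unadjusted p under 0.05. Without Sta1Gut2, the library of even counts, 0 members were called and 1 had an unadjusted p under 0.05, beside 29 calls over all genes. The median change over the members was -0.15 (-0.23 to -0.06 on leaving out 1 library, nearest to 0 without Fed2Gut3), beside 0.01 over all genes. Non-overlap was seen in 2 members, where 14.3% of all genes were apart. The lid gene *psmd8* was at 23.4, 17.2 and 27.3 CPM in fed fish and 14.0, 13.2, 9.77 and 16.4 CPM in starved fish (-0.76, SE 0.37, adjusted p = 0.366). *psmc3ip* was at 27.4 ± 3.85 CPM (SD, n = 3) in fed and 36.1 ± 4.31 CPM (SD, n = 4) in starved fish (0.41, SE 0.30, adjusted p = 0.578).

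The most counted alpha ring gene, *psma6*, was at 442, 558 and 475 CPM in fed fish and 319, 238, 486 and 325 CPM in starved fish at 3dpS (-0.51, SE 0.26, adjusted p = 0.393), and only Sta2Gut2 reached the fed range. *psme2* was at 444, 643 and 661 CPM in fed fish and 405, 527, 503 and 478 CPM in starved fish (-0.27, SE 0.23, adjusted p = 0.638). *psme1* was at 13.4, 34.5 and 11.3 CPM in fed fish and 14.0, 26.3, 24.4 and 11.9 CPM in starved fish (-0.01, SE 0.47, adjusted p = 0.996). In neither did the arms separate. Of the ATPases, *psmc6* was at -0.67 (SE 0.46), *psmc1b* at -0.57, *psmc5* at -0.23, *psmc1* at -0.15, *psmc2* at 0.12, *psmc3* at 0.32 and *psmc4* at 0.34. Of the alpha ring genes, *psma2* was at -0.36, *psma8* at -0.33, *psma2a* at -0.29 and *psma3* at 0.57 (SE 0.66). The lid and base subunits *psmd11*, *psmd1* and *psmd7* were at 0.02, 0.12 and 0.32, and *psme3* at 0.15. For all of these the adjusted p was 0.545 or above.

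After 3 days of refeeding 0 of 19 members were called between refed and fed fish, where 0.0349% of all genes tested were called. Of the 19, 2 had an unadjusted p under 0.05, where 7.51% of all genes did, and DESeq2 called none. The median over the members was -0.17, beside -0.02 over all genes. It was -0.02 without Fed1Gut2, -0.09 without Fed2Gut3, -0.10 without the refed Sta1Gut1 and -0.08 without the refed Sta2Gut2. *psma2* (ENSDARG00000035679), an alpha ring subunit, was at 198, 183, 151 and 127 CPM in fed fish and 254, 201, 247 and 300 CPM in refed fish. Every refed library lay above every fed one (0.54, SE 0.23, adjusted p = 0.653). *psme2* was at 568, 625, 658 and 662 CPM in fed fish and 888, 677, 893 and 863 CPM in refed fish, likewise without overlap (0.35, SE 0.18, adjusted p = 0.654). These were the 2 members apart, both higher, where 2.8% of all genes were apart in that direction.

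The ATPase *psmc5* was at 42.9, 53.3, 30.2 and 41.7 CPM in fed fish and 20.2, 23.3, 40.0 and 18.6 CPM in refed fish at 3dpR (-0.76, SE 0.35, adjusted p = 0.653), with Sta2Gut1 within the fed range. *psme1* was at 32.5, 14.1, 45.4 and 18.7 CPM in fed fish and 6.75, 16.9, 25.5 and 20.7 CPM in refed fish (-0.68, SE 0.46, adjusted p = 0.709), and the arms overlapped. *psma2a*, a paralogue of *psma2* with which reads may be shared, was at 0.76 (SE 0.46, adjusted p = 0.677), *psmc1b* at -0.62 (SE 0.46, adjusted p = 0.748) and *psma6* at -0.24 (SE 0.40, adjusted p = 0.889). Of the others, *psma8* was at -0.43, *psmc2* at -0.39, *psmc1* at -0.29, *psme3* at -0.23, *psmd8* at -0.17, *psmc3* at -0.07, *psmc3ip* at -0.06, *psmd7* at 0.12 and *psmc4* at 0.34.

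For the genes not yet given in each library, the remaining days were as follows. *psma2* was at 131, 211 and 228 CPM in fed fish and 133, 181, 147 and 124 CPM in starved fish at 3dpS, and at 128, 131, 141 and 152 CPM in fed fish and 220, 170, 134 and 129 CPM in starved fish at 21dpS. *psmc5* was at 45.2, 27.3 and 54.7 CPM in fed fish and 34.1, 27.8, 39.1 and 43.2 CPM in starved fish at 3dpS, and at 38.6, 54.5, 15.6 and 39.8 CPM in fed fish and 32.3, 22.6, 30.2 and 33.2 CPM in starved fish at 21dpS. In both genes the arms overlapped on these days. At 21dpS *psmd8* was at 18.5, 22.1, 15.6 and 20.9 CPM in fed fish and 15.4, 8.69, 7.96 and 5.78 CPM in starved fish. There the arms did not overlap, but the gene did not pass the filter. At 3dpR it was at 35.5, 23.5, 7.56 and 31.2 CPM in fed fish and 13.5, 21.2, 36.4 and 18.6 CPM in refed fish. *psma6* at 3dpR was at 444, 862, 741 and 348 CPM in fed fish and 376, 279, 538 and 904 CPM in refed fish, overlapping widely.

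The differences between time points were tested in 1 fit of all 23 libraries with 26 members. None was called, either between the effects at 21dpS and 3dpS (0% of all genes) or between those at 3dpR and 21dpS (0.0432%), and DESeq2 called none of the members. An unadjusted p under 0.05, reached by 8.64 and 9.94% of all genes, was found for *psmc3* (-0.90, SE 0.39, adjusted p = 0.533) and *psma3* (-1.67, SE 0.79, adjusted p = 0.572) in the former, and *psma2a* (1.74, SE 0.69, adjusted p = 0.355) and *psmb13a* (1.21, SE 0.49, adjusted p = 0.366) in the latter. This fit also tested 1 constitutive beta ring gene, at -1.57 (adjusted p = 0.584) in the former and 0.15 (adjusted p = 0.976) in the latter. The comparisons with fed fish at 21dpS and with refed fish at 3dpR used the same starved libraries at 21dpS, so the fall of *psmb8* and the rise of *psmb13a* do not rest on separate samples.

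Summed over a class, levels show what the low single genes cannot, although a sum follows its most abundant members. The inducible beta sum was 128 ± 13.6 CPM (SD, n = 4, 111 to 142) in fed fish and 67.5 ± 12.6 CPM (SD, n = 4, 58.9 to 86.1) after 21 days of starvation, without overlap. Most of its reads were those of *psmb8*, *psmb13a* and *psmb9*, given singly above, with means of 25.1, 24.4 and 13.7 of 71.1 reads a library. At 3dpS the inducible sum was 123 ± 32.4 CPM (SD, n = 3) and 98.9 ± 8.14 CPM (SD, n = 4), and at 3dpR 137 ± 29.6 and 131 ± 31.8 CPM (SD, n = 4 each), both overlapping. At 21dpS the constitutive beta sum, from 83 reads in fed and 68 in starved fish, was 36.4 ± 5.61 CPM and 26.7 ± 5.19 CPM (SD, n = 4 each). Its ranges, 31.2 to 44.3 CPM in fed and 20.0 to 31.8 CPM in starved fish, overlapped only just. Also at 21dpS, fed and starved fish had ATPase sums of 438 ± 85.2 and 429 ± 134 CPM and alpha ring sums of 833 ± 290 and 663 ± 91.3 CPM (SD, n = 4 each). The PA28 sum at 3dpR was 800 ± 48.1 CPM in fed and 975 ± 118 CPM in refed fish (SD, n = 4 each), with the refed library Sta1Gut3 at 799.9 CPM inside the fed range.

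**Figure D4:**
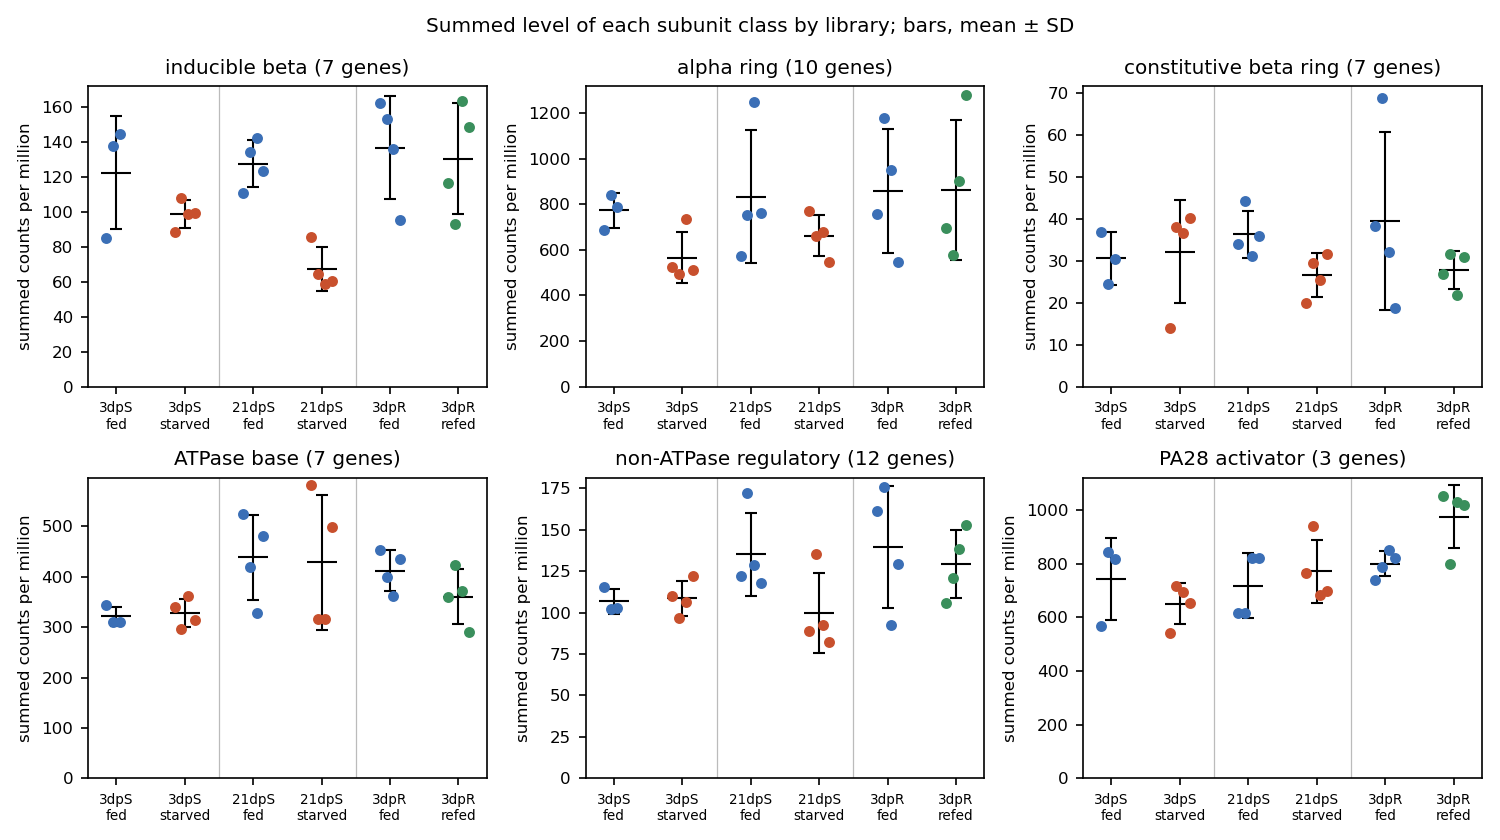
Summed TMM-scaled CPM of 6 proteasome classes in each library of the 6 groups, with the group mean and SD as bars, each panel on its own axis from 0. At 21dpS the inducible beta sum lies between 58.9 and 86.1 CPM in starved fish and between 111 and 142 CPM in fed fish. The other 5 classes overlap there, the constitutive beta sum only between 31.2 and 31.8 CPM.

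The inducible genes share their surroundings. In the RefSeq order of the GRCz12tu assembly, which is not the assembly of the counts, *psmb13a*, *psmb8a* (the current name of *psmb8*), *psmb12* and *psmb9a* follow one another on chromosome 19, between the MHC class I gene *mhc1uba* and *tap2a*, a subunit gene of the peptide transporter. The annotated spans of *psmb13a* and *psmb8a* each overlap those of the other 3 genes, while *psmb12* and *psmb9a* do not overlap each other, and *psmb13a* also overlaps *tap2a*. Reads may thus be shared or discarded among them, and they are not separate replicates of an inducible class. *psme2* also overlaps *lsm5*, and *psme3* overlaps *skap1*. At 21dpS the neighbouring *mhc1uba* was at -0.56 (SE 0.21, adjusted p = 0.151) and *tap2a*, not separate from *psmb13a* in this annotation, at -0.89 (SE 0.47, adjusted p = 0.302). The next neighbours tested, *daxx* and *sdha*, were at 0.30 (SE 0.43) and -0.36 (SE 0.32).

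Of 17 listed interferon and antigen presentation genes 13 were matched, and 7 were tested at 21dpS. All 7 had a log2 fold change below 0, 1 was called lower and 4 had an unadjusted p under 0.05, all lower. The CPM of *mhc1zba* overlapped, at 363, 366, 297 and 408 in fed fish and 320, 311, 341 and 503 in starved fish. Over all genes tested 48% were above 0, 1.65% were called lower and 11% had an unadjusted p under 0.05 with a lower level. Over the 7 the median was -0.59, beside -0.02 over all genes. The call was *irf1b*, a paralogue of the transcription factor IRF1 that acts downstream of interferon. It was at 26.3, 40.9, 56.6 and 43.6 CPM in fed fish and 16.9, 5.22, 14.3 and 10.1 CPM in starved fish at 21dpS, and the groups did not overlap (-1.86, SE 0.39, adjusted p = 0.0212). That call was lost without Fed2Gut3 (adjusted p = 0.0505), Sta2Gut1 (0.0695) or Sta2Gut3 (0.0853), and with all 23 libraries in 1 fit (-1.81, adjusted p = 0.0539). *b2m*, the light chain of MHC class I, was at -0.76 (SE 0.25, adjusted p = 0.105) and *b2ml* at -0.59 (SE 0.27, adjusted p = 0.226). Among matched genes not tested at 21dpS, *tap2t* and *irf1a* had higher means in starved fish. *tap2t* was at 12.4, 8.51, 17.6 and 9.49 CPM in fed fish and 35.4, 33.0, 19.1 and 11.6 CPM in starved fish. *irf1a* was at 9.3, 8.51, 0 and 11.4 CPM in fed fish and 4.61, 33.0, 6.37 and 10.1 CPM in starved fish. In both the arms overlapped. The other untested genes averaged 0.435 to 3.22 reads a library. In the comparisons at 3dpS (8 tested) and 3dpR (7 tested) none of the genes tested was called by edgeR or had an unadjusted p under 0.05. Neither *stat1b* nor *ifit8* was among the 13 genes matched, so the absence of calls at 3dpS does not extend to them. The paper reports both as lowered early in starvation and still lowered late in it.

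**Figure D5:**
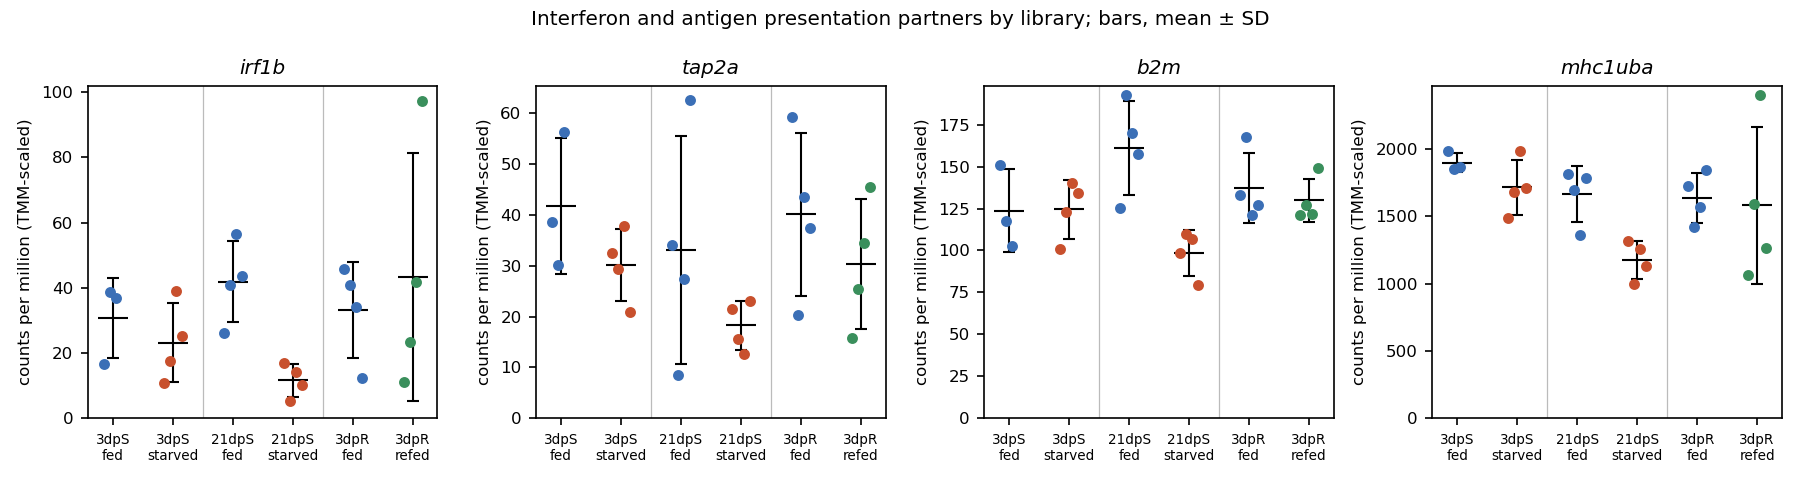
TMM-scaled CPM of *irf1b*, *tap2a*, *b2m* and *mhc1uba* in each library of the 6 groups, with the group mean and SD as bars. At 21dpS *irf1b* lies between 5.22 and 16.9 CPM in starved and between 26.3 and 56.6 CPM in fed fish, and *tap2a* overlaps between the arms.

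Enterocyte markers were lower in starved fish on the same day. All 5 enterocyte markers matched (of 8 listed) were lower in starved fish at 21dpS and 2 were called, *apobb.1* (-1.21, SE 0.25, adjusted p = 0.0186) and *apoa4b.1* (-1.49, SE 0.34, adjusted p = 0.0295). The summed level of the 5 markers was 2536 to 3197 CPM in fed and 1286 to 1793 CPM in starved fish. It was led by *apobb.1*, with a mean of 742 reads a library. The paper reports both called genes among the lipid transport genes lowered late in starvation. For the latter gene it proposes that unusually high levels in the fed fish of that day may play a part. The sum therefore cannot tell fewer enterocytes from a lower level of such genes in each cell. Within the starved libraries, in the fixed order, the sum was 1286, 1448, 1552 and 1793 CPM, the reverse of the order of *psmb8*. That *psmb8* order came from 16, 12, 12 and 13 reads and is uncertain, and no relation to the sum was tested. Within the fed libraries Fed2Gut1 was lowest in both the sum and *psmb8*. The *apoa4b.1* call was lost on leaving out any library but Fed1Gut1 (adjusted p = 0.0297) or Fed1Gut3 (0.0444), and *apobb.1* was lost without Fed2Gut3 (0.0519), Sta1Gut2 (0.0615) or Sta2Gut1 (0.0667). Of the 10 leukocyte markers matched (of 13 listed) 3 were tested at 21dpS, none was called and 1 had an unadjusted p under 0.05: *cd74a*, the MHC class II chaperone, at -0.75 (SE 0.28, adjusted p = 0.150). *ptprc*, the pan-leukocyte phosphatase, was at -0.16 (SE 0.26, adjusted p = 0.793). The summed leukocyte level was 272 to 338 CPM in fed and 233 to 306 CPM in starved fish, and that of 11 exocrine pancreas markers 271 to 1272 CPM and 142 to 379 CPM. Of these pancreas markers 5 were tested at 21dpS. None had a log2 fold change above 0, 2 were called lower and 4 had an unadjusted p under 0.05. Their median was -1.41, beside -0.80 over the enterocyte markers. No marker of these lists was without reads in every library. In refed fish at 3dpR, where *psmb13a* was higher than at 21dpS, the enterocyte sum was 1721 to 2723 CPM and the leukocyte sum 130 to 229 CPM. All 5 enterocyte markers had a log2 fold change above 0 against starved fish at 21dpS. Of these, 1 was called, *apobb.1* (0.78, SE 0.24, adjusted p = 0.0447). Among the 8 libraries, this call was kept only on leaving out Sta2Gut3 at 21dpS (0.0395) or Sta2Gut2 at 3dpR (0.0415). This *apobb.1* call was also lost with tank number as a block (0.0517), with no filter on low counts (0.0664) and with at least 10 reads required in every library (0.0535). In the same comparison all 5 exocrine pancreas markers tested were above 0 and 1 was called (median 1.12). Between refed and fed fish at 3dpR none of 9 pancreas markers tested was above 0, and 0 were called (median -0.98). The part of cell composition in the changes of *psmb8* and *psmb13a* was not tested.

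The wider ubiquitin and proteasome machinery was listed as 41 partner genes, of which 33 symbols were matched. None was called against fed fish, among 10 tested at 3dpS, 9 at 21dpS and 8 at 3dpR. The numbers at an unadjusted p under 0.05 were 2, 1 and 1, beside 15, 20.9 and 7.51% of all genes tested. At 3dpS 8 of 10 had a log2 fold change above 0 in starved fish. *rps27a*, which encodes ubiquitin fused to a ribosomal protein, was at 1.43 (SE 0.39, adjusted p = 0.103). The paper, by contrast, reports ubiquitin-dependent protein catabolism as a function enriched among the genes lowered at 3dpS and not at 21dpS. No enrichment was tested here, and the genes behind that term were not looked up. At 21dpS *uba1*, the ubiquitin-activating enzyme, was at -0.91 (SE 0.31, adjusted p = 0.119). At 3dpR all 8 had a log2 fold change below 0 in refed fish, with a median of -0.42 beside -0.02 over all genes. Between starved fish at 21dpS and refed fish at 3dpR *rps27a* fell (-1.01, SE 0.31, adjusted p = 0.0484), the 1 called of 8 where 11.3% of all genes tested were called. On leaving out 1 of the 8 libraries, *rps27a* was called without Sta1Gut2 of 21dpS (0.0446) and not called without any other (0.0581 to 0.134). It was not called with tank number as a block (-0.86, adjusted p = 0.0791), RLE scaling (0.0521), DESeq2 (0.0829), no filter (0.0608) or all 23 libraries in 1 fit (0.0559).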

How the data were processed

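Whole intestines of 23 zebrafish were sequenced as 50 bp single-end reads after ribosomal RNA depletion. The authors trimmed reads with Trim Galore, mapped them to GRCz10 with STAR and counted them per gene with HTSeq, per the study's methods, and deposited raw counts for each library. The annotation release and strand option are not given in the sources used here. Groups came from the labels of time point and treatment. Gene symbols came from the gene name table and are written in lower case. The proteasome genes and the lists were chosen with earlier results of these data known.

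The tests used edgeR 4.0.16 under R 4.3.3: filterByExpr, TMM scaling, robust quasi-likelihood fits and Benjamini-Hochberg adjustment over all genes tested. Alternatives were RLE scaling, DESeq2 1.42.0, no filter, at least 10 reads in every library, the 100 most abundant genes left out, all 23 libraries in 1 fit, tank number as a block and each library left out. Scripts were tested on simulated data. Depth was 500205 to 1236436 reads, the largest value being that of Sta1Gut2 at 3dpS, whose counts on proteasome genes were all even. At the median depth 3 reads are 5.03 CPM, and this floor covers counting error only.

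Named with values were all members tested against fed fish. Given by library were members called, the 3 of smallest p in each comparison with fed fish, the tested inducible beta genes, *psme1* and *psme2*. Genes outside the members came from fixed pathway and marker lists. Libraries carry a tank and a gut number, with 2 tanks for each diet, so p-values measure the spread between these guts and not between tanks. No library pair within a group agreed within sampling noise (33 pairs, chi-square per degree of freedom 4.86 to 40.3). Fed and starved tanks of the same number are different tanks. Between arms, deviations from the group means of same-numbered tanks correlated across genes at a mean r of -0.0086, 0.08 and -0.13 at 3dpS, 21dpS and 3dpR. The starved tanks, sampled at 21dpS and again at 3dpR after refeeding, are the same tanks per the labels (mean r -0.02). Gene order and overlapping spans came from the RefSeq table of GRCz12tu, matched by symbol, and no coordinate or sequence is printed.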

Additional observations from a re-analysis of the deposited data

Results flagged for a closer look

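Within a group of 4 libraries, 10 of the 115 member levels examined had 1 library far from the other 3, and so had 3 class sums. About 1 in 20 such groups would be marked by chance. In starved fish at 3dpS, *psmb13a* was at 46.8 CPM in Sta1Gut2 against 26.9 to 29.8 in the others, *psma8* at 51.3 CPM in Sta2Gut2 against 23.8 to 26.4, *psme3* at 123 CPM in Sta1Gut1 against 162 to 167, and *psmc2* at 73.0 CPM in Sta2Gut3 against 65.8 to 66.7. In starved fish at 21dpS, Sta2Gut1 was high in *psmd1*, at 33.0 CPM against 14.4 to 15.9, and in *psme2*, at 781 CPM against 584 to 609, while Sta2Gut3 was high in *psmc3*, at 181 CPM against 105 to 115. In fed fish, *psma2a* was at 51.2 CPM in Fed2Gut3 at 21dpS against 10.2 to 17.0, and *psmd1* at 39.2 CPM in Fed1Gut3 at 3dpR against 18.7 to 20.8. In refed fish, *psme2* was at 677 CPM in Sta1Gut3 against 863 to 893, and the PA28 sum at 800 CPM in the same library against 1020 to 1050. At 3dpS the alpha ring sum was 734 CPM in Sta2Gut2 against 495 to 523, and the constitutive beta sum 14.0 CPM in Sta1Gut1 against 36.6 to 40.2.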

How the results depend on the processing

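Of the members called at 21dpS (1), none was called with no filter on low counts (0) and 2 where at least 10 reads were required in every library, *psmb13a* joining *psmb8*; on leaving out 1 library the count was 0 to 1. The median over members there (-0.41) was -0.24 with that stricter filter, -0.30 with tank number as a replicate block, and -0.61 to -0.21 on leaving out 1 library. Between starved fish at 21dpS and 3dpS, 1 member (*psmc1*) was called with no filter. Between refed and starved fish (1) the count was 2 with no filter (*psmb13a* and *psmc1*), 2 with the replicate block (*psmb13a* and *psmb8*) and 0 to 1 on leaving out 1 library. The block changed no other count of members called. Values near 0 changed sign: *psmd11* at 3dpS was -0.0023 with no filter, *psme1* at 3dpS 0.040 with the replicate block, *psmc3* at 3dpR 0.0045 with DESeq2 and 0.033 with no filter, and *psmc3ip* at 3dpR 0.020 with DESeq2, 0.050 with no filter and 0.0016 with all 23 libraries in 1 fit; the causes were not tested. On leaving out 1 library at 3dpS, the ranges that crossed 0 were -0.33 to 0.13 for *psmb9*, -0.32 to 0.66 for *psme1*, -0.15 to 0.31 for *psmd1*, -0.65 to 0.42 for *psma8*, -0.32 to 0.46 for *psmc2*, -0.48 to 0.092 for *psmc1*, -0.50 to 0.12 for *psma2a* and -0.084 to 0.105 for *psmd11*. At 21dpS they were -0.0047 to 0.65 for *psmc2*, -0.23 to 0.022 for *psmc3ip* and -0.275 to 0.058 for *psmd7*. At 3dpR they were -0.10 to 0.28 for *psmb9*, -0.18 to 0.34 for *psmb13a*, -0.22 to 0.20 for *psmc3*, -0.64 to 0.010 for *psma6*, -0.53 to 0.090 for *psmd8*, -0.24 to 0.15 for *psmc3ip* and -0.057 to 0.28 for *psmd7*. Over all genes, calls at 21dpS were 90 in the reported fit, 208 with DESeq2, 227 with no filter, 173 with all 23 libraries and 135 with the block; at 3dpS they were 21, 106 with DESeq2, 172 with no filter, 69 with all 23 libraries and 32 with the stricter filter. On leaving out 1 library these counts were 35 to 137 at 21dpS and 1 to 116 at 3dpS, against 90 and 21, and 117 to 315 between refed and starved fish, against 341.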
